A study of Mus musculus with 4 samples.

Results

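The genes described here are 9 genes listed as targets of TGF-beta family signalling, the transcriptional coactivator YAP or both: Ccn1, Ccn2, Thbs1, Fn1, Timp1, Fst, Akap12, Ankrd1 and Id1. They were chosen by symbol, and all 9 were found once among the 32285 genes of the RNA libraries. The series sampled MK, a mouse keratinocyte line grown in E low medium with 15% fetal bovine serum. Every sample carries the treatment label Dox (commonly doxycycline, a drug used to turn on engineered genes), and GFP-positive cells labelled with a lineage tag were sorted before droplet capture. The RNA library labelled MK and the RNA library labelled Diff_MK are each the only one of their group, and each has a matching library of lineage tags. The labels do not say what Diff stands for, and nothing else in them separates the 2 groups.

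TGF-beta ligands bind a pair of receptor kinases that phosphorylate SMAD proteins, which enter the nucleus and switch on genes of matrix, adhesion and growth arrest. The related bone morphogenetic proteins (BMPs) act through other SMADs, for which Id1 is a standard target. YAP and its relative TAZ (gene Wwtr1) bind TEAD factors on DNA when the Hippo kinases are inactive, as in spread or dividing cells, and Ccn1, Ccn2 and Ankrd1 are their usual reporters. In epidermis, YAP activity is a feature of basal cells, and TGF-beta restrains keratinocyte division.

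Cells were kept at 1000 or more detected genes and at most 15% mitochondrial UMIs (each UMI stands for 1 captured RNA molecule), which left 7175 MK cells with 115181759 UMIs and 6912 Diff_MK cells with 103885150 UMIs. Medians per cell were 15599 and 14223.5 UMIs. The libraries shared 9 cell barcodes among kept cells, and no ratio below changed by more than its counting interval without them. The keratinocyte label fits the markers, with all 8 basal keratinocyte markers at 5 CPM or more in a library, CPM being a gene's UMIs scaled to a common library total. Of these, Krt15 reached that level only in Diff_MK, with 1.02 CPM in MK and 708 CPM in Diff_MK. Of 8 spinous keratinocyte markers 5 reached 5 CPM in a library, and of 8 granular ones 7. Of 8 fibroblast markers, genes of a cell type that makes much Fn1, Timp1 and Thbs1, 0 reached 5 CPM, Col1a2, Dcn and Lum were at 0 in both libraries, and the summed level was 0.582 CPM in MK and 0.356 CPM in Diff_MK. Of 5 smooth muscle and pericyte markers, 1 reached 5 CPM, Acta2, and their sum was 6.15 and 6.29 CPM. Their part in the results was not tested. Without replicates no test between the groups was possible, and every interval is a 95% exact interval that covers counting error only, so variation between libraries of the same kind is unknown.

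Promoter sequences were matched for Ccn1, Ankrd1 and Timp1, a gene that was higher, a gene near the detection limit and a gene that was lower in the Diff_MK library. The 250 bases before each RefSeq start are shown in RefSeq's sequence of GRCm38.p6, 5′ to 3′ along the gene. Capitals mark the TEAD motif GGAATG on either strand. GENCODE vM21 places the Ankrd1 start further upstream, at chr19:36120099, so the Ankrd1 window lies inside that annotated gene.
Ccn1 (chr3:145649986-145650235, minus strand): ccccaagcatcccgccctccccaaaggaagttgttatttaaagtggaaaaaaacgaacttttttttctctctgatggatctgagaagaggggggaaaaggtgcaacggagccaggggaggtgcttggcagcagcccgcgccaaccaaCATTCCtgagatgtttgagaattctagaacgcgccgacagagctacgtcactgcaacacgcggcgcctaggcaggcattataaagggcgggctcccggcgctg
Ankrd1 (chr19:36119845-36120094, minus strand): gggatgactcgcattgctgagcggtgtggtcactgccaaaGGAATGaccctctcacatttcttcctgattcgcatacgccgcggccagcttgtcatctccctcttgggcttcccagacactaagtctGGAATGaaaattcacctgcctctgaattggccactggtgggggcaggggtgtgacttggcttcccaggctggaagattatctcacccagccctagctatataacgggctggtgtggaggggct
Timp1 (chrX:20869916-20870165, plus strand): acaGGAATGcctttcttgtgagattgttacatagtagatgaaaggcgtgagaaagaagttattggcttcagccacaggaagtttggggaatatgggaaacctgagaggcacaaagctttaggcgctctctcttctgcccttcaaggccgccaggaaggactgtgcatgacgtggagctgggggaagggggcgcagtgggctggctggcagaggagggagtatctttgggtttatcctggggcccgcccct
The motif occurred 1 time in the Ccn1 window, on the minus strand at positions -103 to -98 from the start, 2 times in the Ankrd1 window and 1 time in the Timp1 window, at -247 to -242. Of 32851 promoter windows of this length, 12.6% held GGAATG. The AP-1 motif TGACTCA (4.46% of windows), the palindromic SMAD motif GTCTAGAC (0.167%) and the CArG box bound by SRF (1.47%) were not found in these 3 windows. Both strands were searched, and no 2 matches overlapped. The motifs were picked after values were known, and a match describes the letters only.

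The matricellular genes, which encode secreted proteins that modify signals from the matrix, were higher in the Diff_MK library. Thbs1 encodes thrombospondin-1, which can release TGF-beta from its latent complex. It stood at 12.6 CPM (1453 UMIs) in MK and 38.2 CPM (3965 UMIs) in Diff_MK, a ratio of 3.03 (interval 2.85 to 3.22). Ccn1, encoding the integrin ligand CYR61, stood at 11.1 and 26.1 CPM, a ratio of 2.35 (2.20 to 2.51). Ccn2, encoding connective tissue growth factor, had 1415 and 2384 UMIs and stood at 12.3 and 22.9 CPM, a ratio of 1.87 (1.75 to 2.0). The counting intervals of the 2 libraries lay apart for each of these 3 genes, as they did for every other member.

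Timp1, the inhibitor of matrix metalloproteinases, went the other way, with 53.4 CPM (6154 UMIs) in MK and 21 CPM (2183 UMIs) in Diff_MK, a level 2.54-fold lower (2.42 to 2.67). The gene lies on GRCm38 chromosome X, 20870166 to 20874735, inside Syn1 on the opposite strand, and Syn1 had 34 and 11 UMIs. Fn1, encoding the matrix glycoprotein fibronectin, stood at 25.5 and 29.4 CPM, a ratio of 1.15 (1.10 to 1.22). Ccn2, Thbs1, Fn1 and Fst each overlap an annotated gene on the opposite strand with at most 108 UMIs in a library. Whether the counting used strand is not given in the labels or headers.

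Fst, Akap12 and Id1 lay within 1.5-fold between library totals. Fst, encoding follistatin, a secreted trap for activin, stood at 150.1 and 125 CPM, a ratio of 0.836 (0.817 to 0.855). Akap12, encoding a scaffold for protein kinases A and C, stood at 92.4 and 80.3 CPM, a ratio of 0.868 (0.844 to 0.894). Id1, encoding an inhibitor of helix-loop-helix transcription factors, stood at 291 and 269.9 CPM, a ratio of 0.928 (0.914 to 0.943). Their side depended on the cells and scaling used. With libraries scaled to the median gene the Id1 ratio was 1.03, and without the S and G2/M phase-like clusters described below Fst was at 1.34 and Akap12 at 1.11. Those clusters (0 and 5) held 2270 and 1507 MK cells but 54 and 42 Diff_MK cells, so mostly MK cells were left out. Clusters 6 and 10, with 8 and 10 of 10 G2/M phase markers raised at least 1.5-fold, stayed in with 569 and 73 Diff_MK cells. In thinned cells with at most 2 UMIs over 20 markers of S and G2/M phase, a limit chosen after seeing the data that kept 450 MK and 2122 Diff_MK cells, the ratios were 0.294 for Id1, 0.373 for Akap12, 0.477 for Fst, 0.705 for Fn1 and 0.133 for Timp1, against 4.47 for Ccn1 and 3.94 for Thbs1. Ccn2 was at 1.348 there, short of 1.5-fold.

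Ankrd1, encoding a nuclear and sarcomeric ankyrin repeat protein, had only 161 and 85 UMIs, or 1.40 and 0.818 CPM, a ratio of 0.585 (0.445 to 0.766). It is the member that did not reach 10 CPM in either library. Of the other 8 members, 3 were higher in Diff_MK by 1.5-fold or more and 1 was lower by as much, while 4.51% and 7.57% of 7736 genes at 10 CPM or more did so, 12.1% in all. At 2-fold, 2 members were higher and 1 lower, against 1.82% and 0.776% of genes, 2.6% in all. The median log2 ratio of the 9 members was -0.11, and the 8765 genes that reached 5 CPM in each library had a median of -0.15. Of the YAP reporters, Ccn1 and Ccn2 were higher and Ankrd1 lower.

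**Figure D1:**
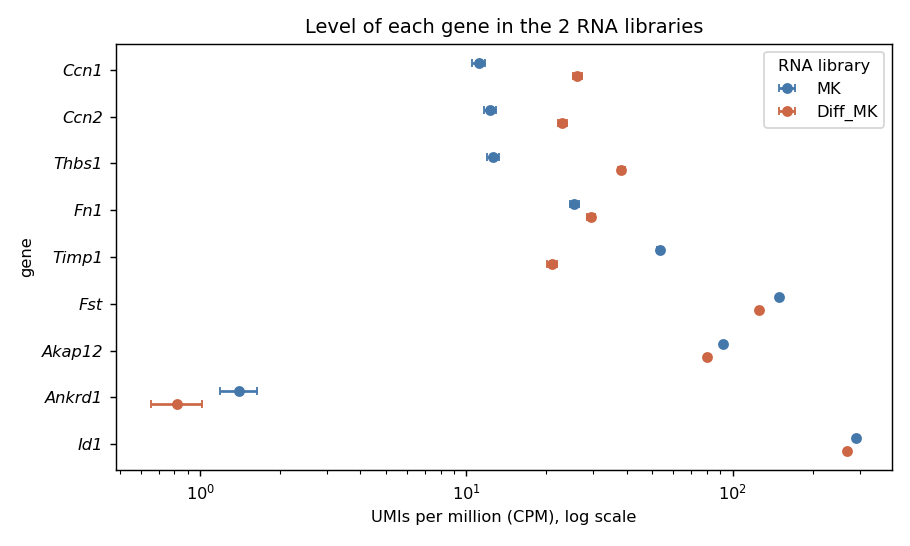
Level of each of the 9 genes in CPM (log axis) in the MK and Diff_MK RNA libraries, with exact 95% counting intervals (some are narrower than the point). Thbs1, Ccn1 and Ccn2 lie to the right in Diff_MK and Timp1 to the left, while Id1 nearly coincides at 291 and 269.9 CPM.

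Id1, Akap12 and Fst had close library totals but were found in fewer Diff_MK cells. To compare shares of cells, each cell was thinned at random to 7500 UMIs, and 337 MK cells and 635 cells of Diff_MK were too shallow to enter. Id1 was found in 75.7% of thinned MK cells (interval 74.7 to 76.7%) but in 53.9% of those of Diff_MK (52.6 to 55.1%); unthinned, the shares were 87.4% and 60.5%. Akap12 was found in 39.4% and 27.7% of thinned cells (unthinned 56.5% and 37.7%), and Fst in 43.7% and 33.0% (unthinned 55.7% and 41.1%). The variance over the mean of thinned counts was larger in Diff_MK than in MK for every member, so it does not set these 3 genes apart. It was 3.97 against 2.50 for Id1, 2.95 against 2.27 for Akap12 and 3.79 against 3.42 for Fst. For Ccn1 it was 2.08 against 1.23, and for Thbs1 1.73 against 1.12. Pure counting noise would give a ratio of 1.

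Shares followed the levels for the genes that differed most. Thbs1 was found in 8.95% of MK and 21.2% of Diff_MK thinned cells (unthinned 16.4% and 32.2%), Ccn1 in 7.50% and 14.5% (13.7% and 22.4%), and Ccn2 in 7.68% and 10.8% (13.6% and 17.9%). Timp1 was found in 30.9% and 12.3% (49.8% and 21.7%). The Fn1 shares were 15.9% and 16.03%, with overlapping intervals (unthinned 28.8% and 27.4%), and those of Ankrd1 1.02% and 0.462% (2.08% and 1.04%). No cell type known to lack these genes was present in which free RNA could be measured.

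**Figure D2:**
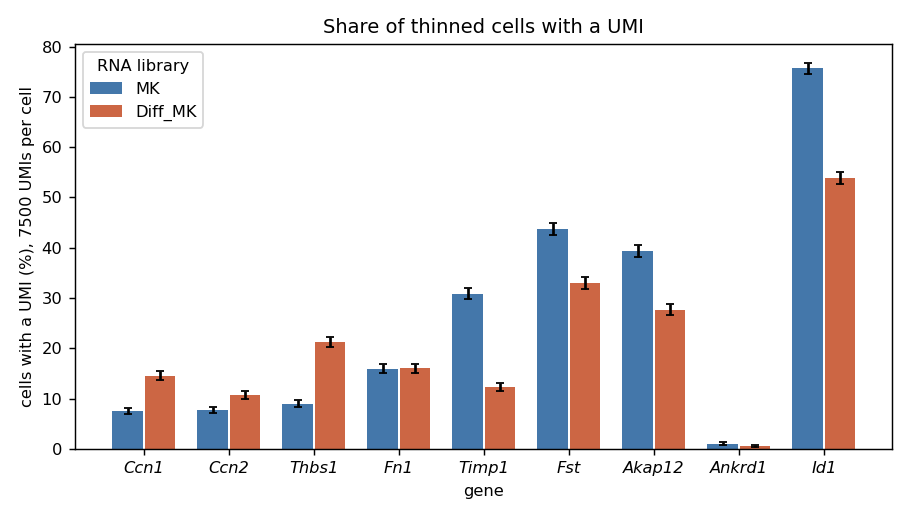
Share of cells (%) with at least 1 UMI of each gene after thinning every cell to 7500 UMIs, for the MK and Diff_MK RNA libraries, with exact 95% intervals over cells. Id1 is found in 75.7% of MK and 53.9% of Diff_MK cells although its library levels are close, and Thbs1, Ccn1 and Ccn2 have taller Diff_MK bars.

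To see where the members were expressed, both libraries were clustered together on variable genes from which the 9 members and all pathway genes listed below were left out. This gave 13 clusters, and a cluster made of 1 library may stand for that library as much as for a state. Levels by cluster are therefore a description, given for clusters with 50 or more cells of a library. In Diff_MK the members split into 2 patterns, seen by setting cluster 1 against cluster 4, a pair picked after their values were known. Cluster 1, 1856 Diff_MK cells and 1 MK cell led by Krt15, Clu and Lgals7, was high in Ccn1 and Thbs1 and low in Id1, Akap12, Fst, Fn1 and Timp1. Cluster 4, with 1522 Diff_MK and 38 MK cells, was above the Diff_MK library level for all 8 members above 10 CPM, and Fn1, Akap12, Fst and Id1 were among its 10 leading genes although none of them had entered the clustering. Genes that correlate with them had entered it.

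Id1 stood at 16.8 CPM in cluster 1 and 488 CPM in cluster 4 of the Diff_MK library, a level 29.1-fold lower (26.1 to 32.6) in cluster 1. Akap12 stood at 5.57 and 176 CPM, 31.6-fold lower (26.1 to 38.6). Fst stood at 15.6 and 243 CPM, Fn1 at 3.38 and 55.9 CPM and Timp1 at 2.45 and 37.98 CPM, each between 15.5-fold and 16.5-fold lower. After thinning, an Id1 UMI was found in 10.6% of cluster 1 cells and 89.97% of cluster 4 cells. The median depth before thinning was 10134 UMIs in cluster 1 and 18184.5 in cluster 4.

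Ccn1 and Thbs1 went against that split. Ccn1 stood at 58.8 CPM in cluster 1 and 28.5 CPM in cluster 4, a ratio of 2.07 (1.89 to 2.26), and Thbs1 at 70.3 and 45.6 CPM, a ratio of 1.54 (1.43 to 1.67). Cluster 1 held 18.5% of the UMIs of the Diff_MK library but 41.6% of its Ccn1 and 34.1% of its Thbs1 UMIs, and 1.15% of its Id1 UMIs. Ccn2, a paralog of Ccn1, was lower in cluster 1, with 18.4 CPM against 42.6 CPM in cluster 4, 2.31-fold lower (2.05 to 2.61). Cluster 10, 73 Diff_MK cells led by Krt7, had the highest Ccn1 level at 78.8 CPM and a low Id1 level of 36.8 CPM.

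Some other Diff_MK clusters lay above cluster 4, with Id1 at 511 CPM in cluster 6 and, in the 54 cells of cluster 0, Fst at 271, Akap12 at 194 and Timp1 at 54.5 CPM. Cluster 8, 490 cells led by Krt78, Serpinb11 and Krt6b, was low in most members, with Ccn1 at 2.56, Thbs1 at 10.8, Fst at 8.58 and Timp1 at 1.81 CPM. Its Id1 level was 59.4 CPM. Cluster 7, 1093 cells led by Elovl6, Ddit4 and Idi1, had Id1 at 101.6 CPM and Ccn1 at 13.1 CPM. Cluster 1 had 0 of 10 S phase and 0 of 10 G2/M phase markers raised at least 1.5-fold. The same held for clusters 2, 3, 7, 8 and 9, and cluster 4 had 0 and 2 of 10 raised, so this count does not set cluster 1 apart. It covers raised markers only and does not tell ordinary marker levels from low ones. The part of these markers in the levels was not tested.

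In the MK library Id1 and Akap12 varied less between clusters, and 7 of the 8 members still spanned 3-fold or more. The share of all genes spanning as much is not given, so nothing particular to the members is read from this count. For Ccn1, Thbs1, Fn1 and Timp1 the lowest MK level rested on 4, 3, 11 and 6 UMIs in the 69 MK cells of cluster 9. Over the 6 MK clusters of 50 or more cells, Id1 ran from 169 CPM in cluster 9, which was granular keratinocyte-like and led by Lce3c and Calm4, to 375 CPM in cluster 6. Akap12 ran from 42.5 CPM in cluster 3, led by Lor and Lcn2, to 128 CPM in the S phase-like cluster 0. The highest over the lowest cluster level was 2.21 for Id1 and 3.01 for Akap12 in MK, against 30.5 and 34.9 in Diff_MK, which has 10 such clusters. Ccn2 spanned about as much in both, 6.92-fold and 6.43-fold. Fst ran from 26.04 CPM in MK cluster 3 to 212 CPM in cluster 9. Timp1 ran from 5.58 CPM in cluster 9 to 70.4 CPM in cluster 0.

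**Figure D3:**
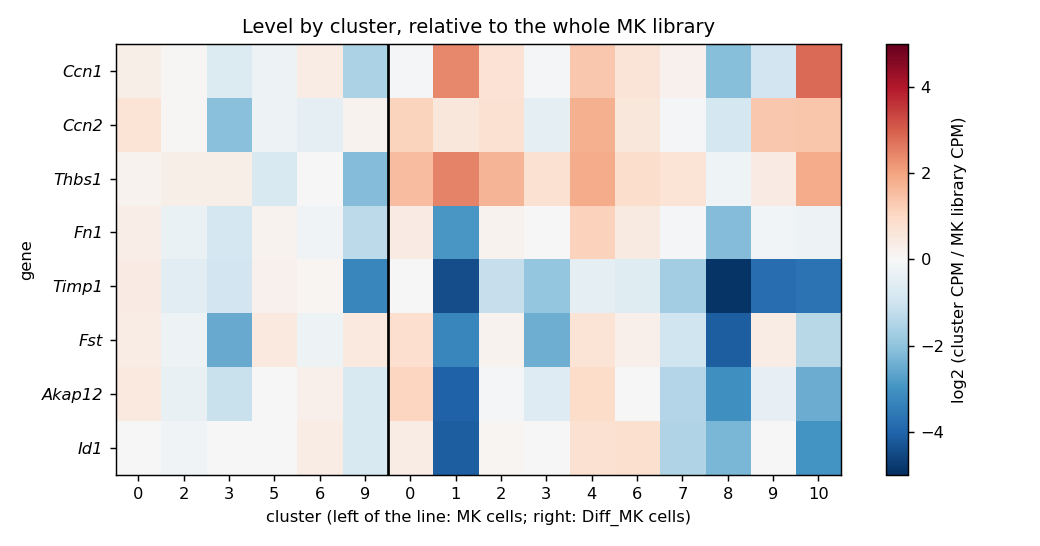
Level of the 8 genes above 10 CPM in each cluster, as log2 of the cluster's CPM over the CPM of the whole MK library, for MK cells (left of the line) and Diff_MK cells (right), in clusters of 50 or more cells. Cluster 1 of Diff_MK is red for Ccn1 and Thbs1 and deep blue for Fn1, Timp1, Fst, Akap12 and Id1, and cluster 4 is red for every gene but Timp1.

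In 5 clusters both libraries had 50 or more cells, which allowed levels to be compared among cells that clustered together. Thbs1 was higher in Diff_MK in 5 of 5, with ratios from 1.41 to 5.97, the latter resting on 3 MK UMIs (interval 1.88 to 30.3). Ccn1 was higher in 4 of 5 (0.749 to 1.60). Ccn2 was higher in 5 of 5, with ratios from 1.33 to 3.03, and Timp1 was lower in 5 of 5, at 0.503 to 0.774. Fn1 and Id1 were also higher in 5 of 5, and Akap12 and Fst in 4 of 5, although the totals of Id1, Akap12 and Fst were lower in the Diff_MK library. The Id1 ratios in these clusters were 1.01 to 1.76. How many of all genes were higher in as many clusters is not given, so nothing particular to the members is read from these counts. Among the 8 members above 10 CPM, intervals included 1 for Ccn1, Ccn2, Fn1 and Timp1 in cluster 0 (54 Diff_MK cells), Fst and Id1 in cluster 3, Ccn1 in cluster 6, and Ccn1, Timp1, Fst and Akap12 in cluster 9. With the Diff_MK cells of cluster 1 left out, the ratios of library totals became 1.13 for Id1, 1.05 for Akap12 and 1.002 for Fst, while Thbs1 was at 2.45, Ccn1 at 1.68 and Timp1 at 0.472. Cluster 1 was picked with its levels of these genes known, so the direction of each change was fixed in advance.

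Over cells of the same library the members were weakly correlated. Pearson's r of log(1 + thinned UMIs) was computed for all 36 pairs, over 6838 MK and 6277 Diff_MK cells that share a library and a depth. Its median was 0.034 in MK (highest 0.120) and 0.078 in Diff_MK (highest 0.369), and 2 and 15 pairs were above 0.1. Values over pairs of all genes are not given, so nothing particular to the members is read from this difference between libraries. In Diff_MK the highest values joined Id1 with Akap12 (0.369, against 0.085 in MK), Id1 with Fst (0.287, against -0.025) and Akap12 with Fst (0.257, against 0.090). Ccn1 with Thbs1 had 0.177 and Ccn1 with Ccn2 0.131, while Ccn1 with Id1 had -0.055. Values this low in sparse counts carry little weight singly.

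**Figure D4:**
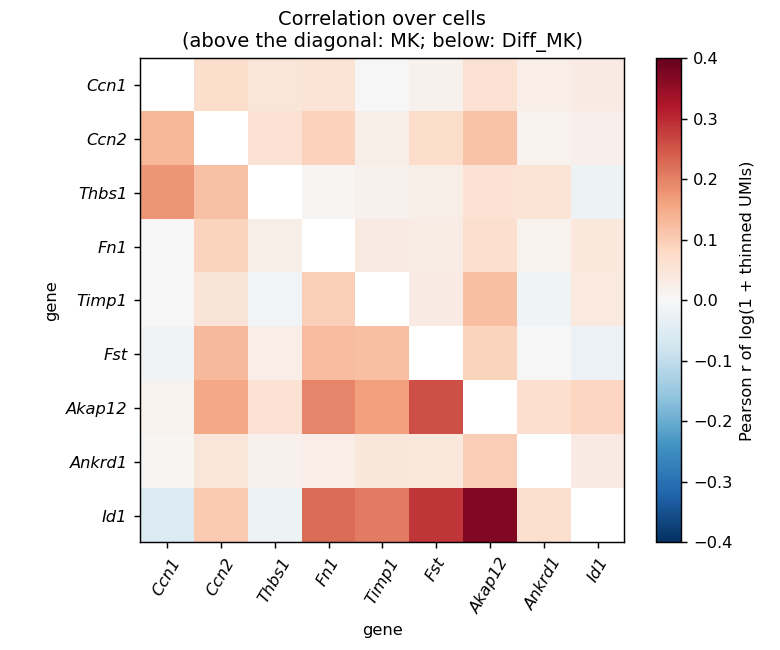
Pearson correlation over cells between each pair of the 9 genes, on log(1 + UMIs) after thinning to 7500 UMIs, above the diagonal for MK and below it for Diff_MK. The block joining Fn1, Timp1, Fst, Akap12 and Id1 is darker in Diff_MK, with its highest value of 0.369 for Akap12 and Id1, and Ccn1 and Thbs1 (0.177) lie outside it.

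Among 7994 genes with a UMI in at least 5% of thinned cells of each library, the 3 most like each member were taken by the mean of both within-library correlations. Id1 was closest to Id3 (r of 0.206 in MK and 0.554 in Diff_MK), its paralog, then to the chemokine gene Cxcl5 (0.045 and 0.587) and Id2 (0.160 and 0.469). In Diff_MK, Id3 stood at 75.7 CPM in cluster 1 and 537 CPM in cluster 4, Id2 at 17.9 and 211 CPM, and Cxcl5 at 28.4 and 1649 CPM. Akap12 was closest to Actb (0.209 and 0.368), encoding beta-actin, Wfdc2 and Cxcl5. Fst was closest to Ncl (0.224 and 0.363), Npm1 and Set, genes of the nucleolus and of chromatin.

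Ccn1 and Thbs1 shared their nearest genes. Ccn1 was closest to Igfbp2 (0.039 and 0.227), which encodes an insulin-like growth factor binding protein, the protease gene Prss23 (0.034 and 0.194) and Thbs1. Thbs1 was closest to Ccn1, Igfbp2 and Prss23. In Diff_MK, Igfbp2 stood at 529 CPM in cluster 1 and 212 CPM in cluster 4. Ccn2 was closest to Akap12 (0.114 and 0.156), Actg1 and Actb, Fn1 to Tmsb4x, Wfdc2 and Actb, and Timp1 to Wfdc2 (0.206 and 0.257), Npm1 and Set. Ankrd1, under that 5% limit, was not ranked.

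Of 9282 genes at 5 CPM or more in a library, the level used for the lists that follow, 4.91% were higher by 1.5-fold or more and 8.2% lower by as much. Of 23 Hippo pathway genes at 5 CPM or more in a library, 20 were lower and 3 higher in Diff_MK, 2 of them at least 1.5-fold lower and 0 at least 1.5-fold higher, with a median log2 ratio of -0.15, as over all genes. Of the named ones only Tead4 and Lats2 passed. Yap1 stood at 34.2 and 30.8 CPM and Wwtr1 at 23.7 and 21.6 CPM. The DNA-binding partner gene Tead4 stood at 37.5 and 24.3 CPM, and the kinase gene Lats2, itself switched on by YAP, at 12.3 and 7.51 CPM. The most abundant of the list were Map4k4 (138 and 124 CPM), Amotl1 (124 and 111 CPM) and Tead1 (69.2 and 61.8 CPM).

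Among TGF-beta family ligands, 3 TGF-beta and activin genes were measured, with Tgfb1 at 38.6 and 40.9 CPM, Inhbb at 42.6 and 35.9 CPM and Gdf11 at 5.37 and 3.33 CPM, which was the only one past 1.5-fold. Of the BMP and GDF list only Bmp1, a procollagen protease despite its name, was measured, at 63.8 and 38.9 CPM. Of 10 receptor genes 5 were higher and 5 lower. Tgfbr3, the co-receptor betaglycan, was 2.78-fold higher (2.49 to 3.10) at 4.02 and 11.2 CPM, while the signalling receptors stood at 14.4 and 9.97 CPM (Tgfbr1) and 34.7 and 25 CPM (Tgfbr2). The BMP receptor genes Bmpr2 (42.1 and 43.3 CPM) and Bmpr1a (52.4 and 47.3 CPM) were close. Of 5 SMAD genes 1 was higher, Smad4 at 63.6 and 65.0 CPM, and 4 lower, among them Smad2 at 57.4 and 42.9 CPM, Smad1 at 22.6 and 20.96 CPM and Smad5 at 14.8 and 12.9 CPM. None of 9 inhibitor genes reached 1.5-fold, including the feedback inhibitor Smad7 at 55.9 and 50.7 CPM and the TGF-beta-induced Pmepa1 at 228 and 210.1 CPM. Ltbp1, whose protein stores latent TGF-beta in matrix, stood at 12.3 and 17.2 CPM, the corepressor gene Tgif1 at 62.6 and 49.6 CPM and the ubiquitin ligase gene Smurf2 at 37.5 and 28.8 CPM.

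Other target genes differed in both directions. Of 14 further genes listed as TGF-beta targets, 11 were higher and 3 lower in Diff_MK, with a median log2 ratio of 0.25. Past 1.5-fold were 3 and 1 of them (4.91% and 8.2% of all genes at this level). The list is small, and nothing particular to it is read from these counts. Bhlhe40, a circadian and hypoxia-responsive repressor gene, was 4.36-fold higher (5.68 and 24.8 CPM), and Tgfbi, encoding a matrix protein, 2.81-fold higher (5.34 and 15.0 CPM). In the Diff_MK library both were higher in cluster 1 (64.5 and 41 CPM) than in cluster 4 (9.41 and 8.74 CPM). The most abundant were Junb (447 and 527 CPM), Id3 (367 and 321 CPM) and Col4a1, encoding a basement membrane collagen (157 and 189 CPM). Plaur, outside the naming rule, was the gene at least 1.5-fold lower, at 41.2 and 20.3 CPM. Of 16 further YAP targets, 6 were higher and 10 lower, 2 at least 1.5-fold each way, with a median of -0.23. Nt5e stood at 10.8 and 16.6 CPM, Myof at 197 and 223 CPM, Ctnnal1 at 40.9 and 25.5 CPM, Asap1 at 121 and 91.3 CPM and the mitotic gene Birc5 at 193 and 131 CPM.

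Of 17 SRF and actin cytoskeleton genes, 7 were higher and 10 lower, and only Zyx, encoding the focal adhesion protein zyxin, passed 1.5-fold, at 169 and 94.6 CPM. Actb stood at 4248 and 3406 CPM, Actg1 at 2431 and 2262 CPM and Actn1, encoding alpha-actinin, at 325 and 232 CPM. Of 13 matrix and protease partner genes, 6 were higher and 7 lower. Mmp14, encoding a membrane-bound matrix metalloproteinase, was 1.60-fold higher at 35.9 and 57.3 CPM, while Itgb1, encoding integrin beta-1, was 1.55-fold lower (519.7 and 334 CPM). Sdc1 stood at 432 and 420.3 CPM and Col17a1 at 247 and 314 CPM.

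The lineage tags allowed the libraries to be compared within clones, here meaning cells with the same dominant tag, one that had a minimum of 3 counts and outnumbered every other tag 2 to 1. In 21 clones at least 20 cells were found in both libraries. Thbs1 was higher in Diff_MK in 21 of 21 clones, with levels of 4.17 to 28.9 CPM (median 12.6) in MK and 17.2 to 67.6 CPM (median 37.8) in Diff_MK. Timp1 was lower in 21 of 21, with 48.3 to 92.4 CPM (median 55.4) in MK and 6.25 to 42.1 CPM (median 22.1) in Diff_MK, so the ranges did not overlap. The counting interval of the ratio lay apart from 1 in 13 clones for Thbs1 and 19 for Timp1. Clones of 1 library are not replicates of a condition, and no test was made over them.

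Ccn1 was higher in 18 of 21 clones (medians 12.4 and 24.1 CPM) and Ccn2 in 16 (13.2 and 24.2 CPM). For each of them the counting interval of the ratio lay above 1 in 9 clones and below 1 in 1. Fst was lower in 17 of 21 (medians 171 and 136 CPM), and its Diff_MK levels ran from 15.6 to 198 CPM. Its interval lay below 1 in 12 clones and above 1 in 3. The other members had no common side, with Fn1 higher in 14, Akap12 in 8 and Id1 in 9 of 21 clones. Id1 levels ran from 237 to 386 CPM in MK and from 175 to 510.0 CPM in Diff_MK. Ankrd1 was too sparse to be read in single clones, with 0 clones whose interval lay apart from 1.

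**Figure D5:**
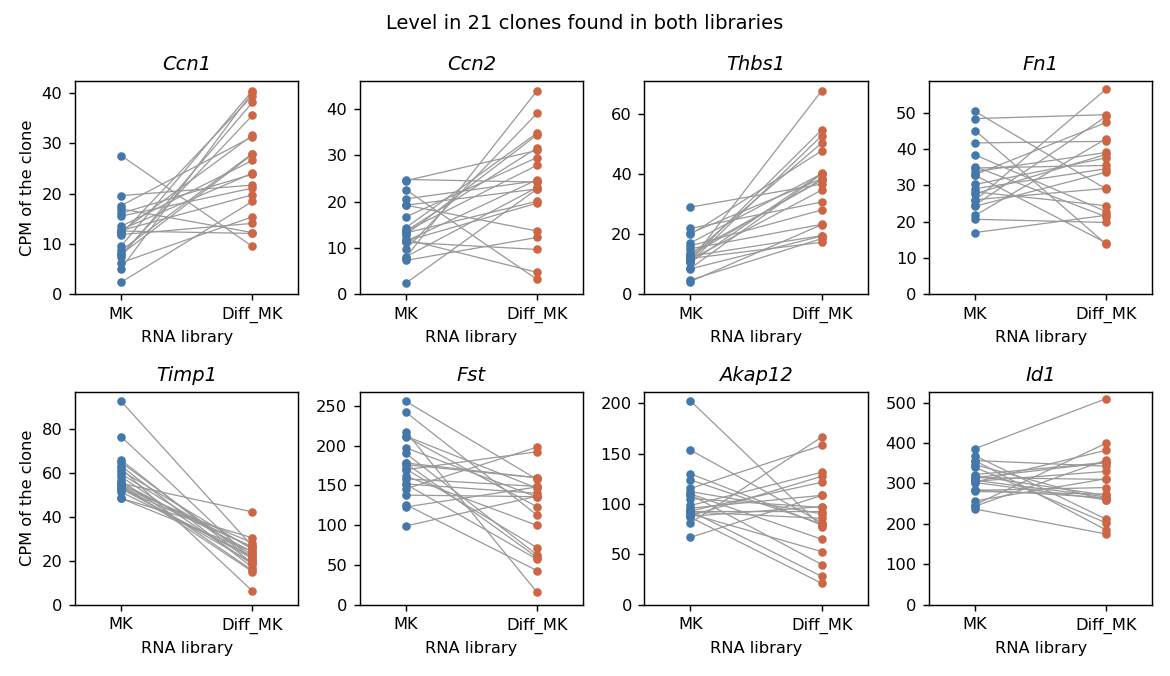
Level (CPM, linear axis from 0) of 8 genes in 21 clones of 20 or more cells in each library, with a line joining the MK and Diff_MK cells that carry the same tag. Thbs1 is higher in Diff_MK in 21 of 21 clones and Timp1 lower in 21 of 21, while Fn1, Akap12 and Id1 go both ways.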

How the data were processed

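The authors deposited UMI counts for every gene and barcode of the RNA libraries, unnormalized, produced by Cell Ranger 6.1.2 per the file headers, with mm10 as build per the submitters' processing notes. The lineage tag libraries are deposited counts per tag; how these were counted is not given in the sources used here. UMIs of kept cells were summed per library and scaled to CPM. Ratios carry exact conditional binomial intervals, levels exact Poisson and shares exact Clopper-Pearson intervals, all at 95%. As each group is 1 library, there were no tests.

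Cells were clustered with scanpy 1.11.5 and leidenalg 0.10.2 (2000 variable genes, 30 principal components, 15 neighbours, resolution 0.5). No doublets were called or removed. Tags of unequal length were compared over the length of the shorter one. Gene positions are from GENCODE vM21 (GRCm38) and promoters from RefSeq, matched for 3 of 9 members. The computations were tested on simulated data.

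The members and gene lists were chosen with earlier results of these data known. The named genes are the members, the 3 most abundant genes and the 2 with the largest log2 ratio of each list, and the 3 genes most like each member. Some genes of the lists are not reported here. Yap1, Wwtr1 and Plaur were named after their values were seen, as were the cluster levels of genes that are no members. Several further choices came after values were seen. Clusters were first named where 1 or more markers were among the 10 leading genes, which called cluster 6 G2/M phase; this was raised to 3, and results under both rules are given. The count of members spanning 3-fold over clusters was limited to the 8 members above 10 CPM. The comparison of clusters 1 and 4, the promoter motifs and the 4 added alternatives were also chosen then.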

Additional observations from a re-analysis of the deposited data

How the results depend on the processing

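No paired analysis was possible because each group is 1 library and the result comes from no test. Over 12 alternatives, Ccn1, Ccn2 and Thbs1 had ratios above 1 and Timp1 and Ankrd1 below 1 in each, whereas Fn1 was below 1 in 1, Fst and Akap12 above 1 in 3 each and Id1 above 1 in 2. The median log2 ratio of the members (-0.11) was 0.045 under median scaling, -0.031 without mitochondrial and ribosomal protein genes, -0.079 with 2000 genes and 10% mitochondrial counts, -0.33 with each cell weighted equally, -0.16 without the 6% of cells with most UMIs and -0.026 in cells with a dominant tag. Without the S and G2/M phase-like clusters (0 and 5) it was 0.42, with 0 members 2-fold lower, 4 at least 1.5-fold higher (Fn1 at 1.51) and 3 at least 2-fold higher (Ccn2 at 2.66). The cells left out there were mostly MK cells, 2270 and 1507 against 54 and 42 of Diff_MK. With all cell barcodes the median was -0.11. Leaving out the barcodes shared by both libraries, also giving -0.11, and the next 3 alternatives were chosen after seeing the data. Leaving out clusters 0, 5 and 6, as the first naming rule would have done, gave 0.55, again 0 members 2-fold lower, and 4 and 3 higher at 1.5-fold and 2-fold. Thinned cells with at most 2 UMIs of the S and G2/M markers (6.58% of MK and 33.8% of Diff_MK cells) gave -1.07, with 4 members at least 1.5-fold and 4 at least 2-fold lower, and 2 at least 1.5-fold higher, without Ccn2 (1.348). Leaving out Diff_MK cluster 1 gave 0.17 and 1 member 2-fold higher. The median and shares over all genes are given for the main setting only. Under the alternatives a shift of the members can therefore not be told from a shift of all genes. Separately from these alternatives, members on 1 side in at least 75% of shared clones numbered 5. They numbered 3 with clones of 10 or more cells (30 clones) and 4 with tags identical in full (16 clones). The share of all genes on 1 side is not given, so nothing particular to the members is read from these counts. The cause of the shifts between settings was not tested.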

Other observations

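Levels varied widely between single clones for some members. In the Diff_MK library, Fst ran from 4.70 to 370 CPM over 50 clones of 20 or more cells (median 129 CPM), with the highest level in a clone of 36 cells (204 UMIs, interval 321 to 424 CPM). A Diff_MK clone of 58 cells was close to it, at 361 CPM. The MK clones ran from 38.4 to 286 CPM. Akap12 had its highest level, 274 CPM (interval 221 to 336), in a Diff_MK clone of 21 cells, which also had the highest Fn1 level at 83.5 CPM (55.5 to 121). Ankrd1, at 0.818 CPM in the whole Diff_MK library, reached 19.2 CPM (7.71 to 39.5) in a clone of 24 cells on 7 UMIs. These clones were picked for their values, so the intervals describe counting error only.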
